A study of Mus musculus with 10 samples.

Results

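The genes described here code for 10 secreted glycoproteins and proteoglycans of the extracellular matrix: fibronectin (Fn1), the matricellular proteins thrombospondin-1 (Thbs1), tenascin-C (Tnc) and Sparc, the fibulins Efemp1, Fbln1 and Fbln2, and the basement membrane components nidogen-1 (Nid1), perlecan (Hspg2) and agrin (Agrn). They were chosen by name, and all 10 were among the 19505 genes with a symbol on the arrays, each with 1 probe set. RNA came from cultures of mouse intestinal organoids, which are small epithelia grown from intestinal tissue. 5 arrays were from organoids labelled KO for IκBα and 5 from WT organoids, and the labels of both groups carry the mark P6, which they do not explain. The knocked-out allele, any Cre driver, the strain, the age and the number of animals or cultures are not stated in the sources used here. The p-values therefore measure the spread between these 10 samples and no more, and that spread may be technical.

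The extracellular matrix is the protein mesh that cells secrete and attach to. Beneath an epithelium it forms the basement membrane, a sheet in which nidogen and perlecan tie together networks of laminin and type IV collagen. In the intestine, fibronectin and much of the interstitial matrix come largely from fibroblasts, while epithelial cells make part of their own basement membrane. Matricellular proteins are secreted into the matrix but act mainly as signals through receptors on the cell surface, and many are made during development and after injury. Fibulins are built from repeated modules that resemble epidermal growth factor and connect elastic fibres and basement membranes. IκBα, the product of Nfkbia, holds NF-kB transcription factors in the cytoplasm.

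All levels are log2 values as deposited, and a change is the KO mean minus the WT mean. Array medians lay between 6.03 and 6.23, and the medians of the negative control probe sets, which match no mouse transcript by design, lay between 4.30 and 5.10. Nfkbia stood at 5.06 ± 0.31 in KO against 9.19 ± 0.38 in WT (SD, n = 5 each). The Y-linked transcripts Eif2s3y, Uty and Kdm5d were also lower in KO, with changes of -5.20, -4.47 and -2.42, so the KO label and lower Y-linked signal cannot be told apart in any comparison here. A called change with only a single group mean at or under 5.10 is a lower bound of its size, as it is for Nfkbia and these 3 transcripts. Where both means lie at or under 5.10, as for Lum, Omd and Itga9 below, the difference is between background levels and gives no bound. The median change of the 8 bacterial and phage spike-in probe sets was -0.52 (range -0.85 to -0.10). Its part in changes of that size was not tested.

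7 of the 10 genes rose in KO, 1 fell and 2 did not pass (limma, adjusted p under 0.05 over 19572 probe sets). Efemp1, Fn1, Thbs1, Tnc, Agrn, Hspg2 and Fbln2 rose, Fbln1 fell, and Nid1 and Sparc did not pass. Over all probe sets 26.7% passed, 15.0% higher and 11.7% lower in KO. For the 8 genes that passed, the KO and WT values did not overlap, which held for 21.4% of all probe sets, 12.3% with KO higher and 9.07% with KO lower. The median change of the 10 genes was 2.0, against -0.01 over all probe sets. In RNA from whole cultures, fewer cells that express a gene and less RNA per cell cannot be told apart.

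**Figure D1:**
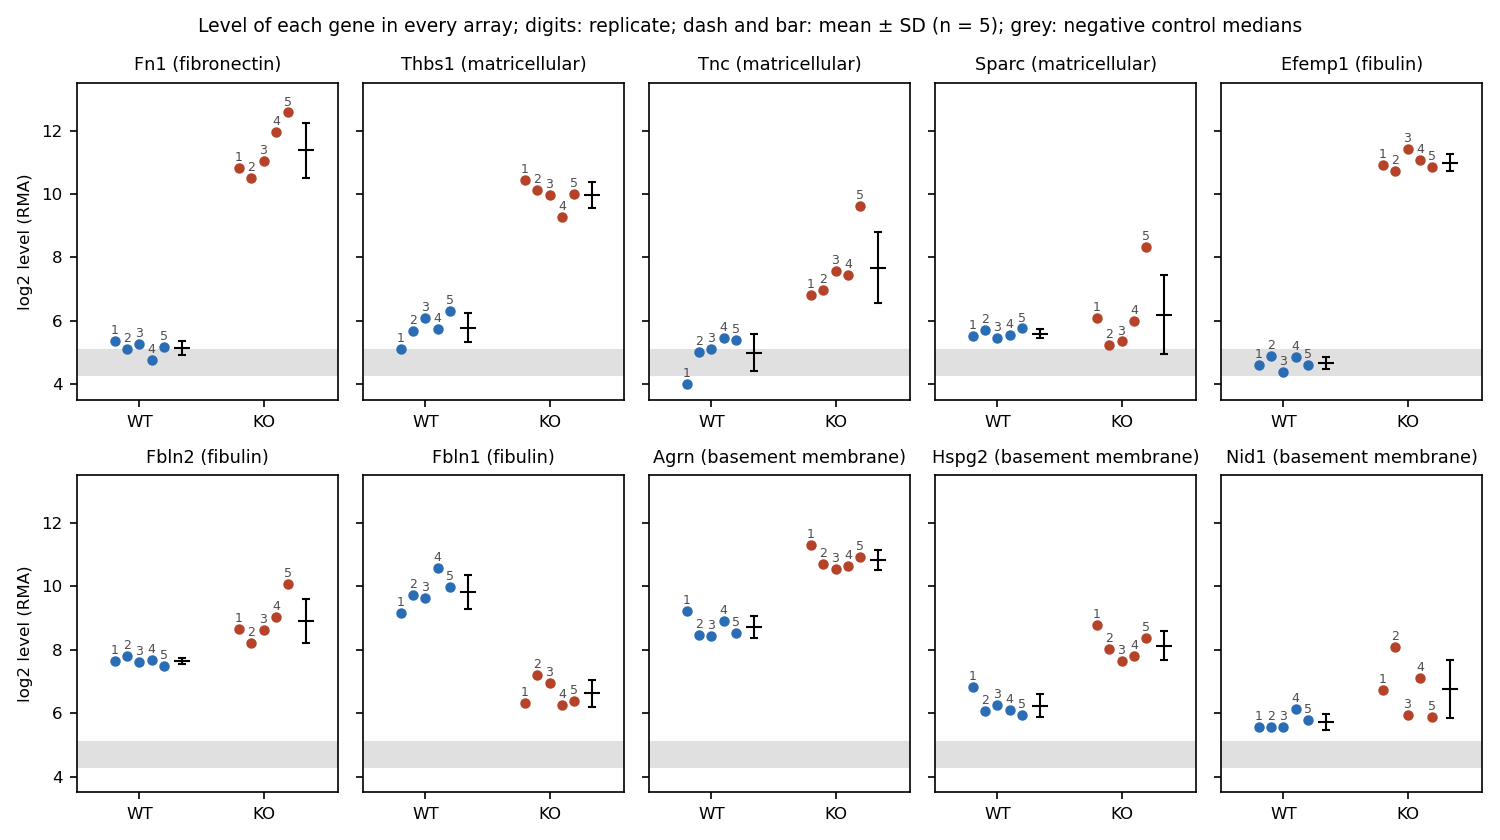
Log2 level of each of the 10 genes (vertical axis) in the 5 WT and 5 KO arrays; each point is 1 array with its replicate number, the dash and bar are the mean ± SD, and the grey band spans the negative control medians of 4.30 to 5.10. The groups are apart for 8 genes and overlap for Sparc and Nid1, and the Efemp1 values of WT lie inside the grey band.

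**Figure D2:**
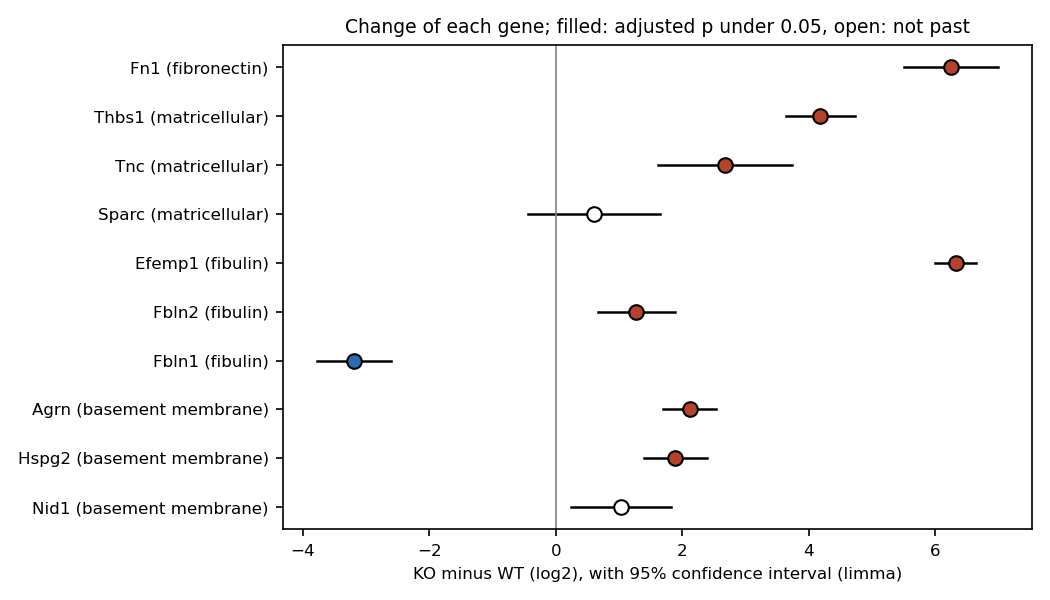
Change of each gene (KO minus WT, log2, horizontal axis) with the 95% confidence interval of the limma fit; filled points passed the adjusted threshold and open points did not. Efemp1 and Fn1 stand near 6, Fbln1 alone lies below 0, and the interval of Sparc runs from -0.44 to 1.65.

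Fibronectin is a large glycoprotein that integrins pull into fibrils, on which other matrix proteins then assemble. Fn1 stood at 10.83, 10.49, 11.05, 11.95 and 12.57 in KO replicates 1 to 5 and at 5.36, 5.10, 5.27, 4.78 and 5.17 in the WT replicates. Every KO value exceeded every WT value by at least 5.13, and the WT values lay in or just above the range of the negative control medians. The change was 6.24 (SE 0.34), a 75.7-fold difference (limma, adjusted p = 8.38e-08). The WT mean of 5.14 was just above the highest negative control median of 5.10, so this fold may understate the change. The spread was uneven, with an SD of 0.86 in KO and 0.22 in WT, and KO replicates 4 and 5 were the high ones.

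Among the fibulins, 2 rose and 1 fell. Efemp1, also called fibulin-3, stood at 10.90, 10.72, 11.41, 11.08 and 10.85 in KO and at 4.61, 4.89, 4.40, 4.85 and 4.60 in WT. All WT values lay inside the range of the negative control medians, while the KO values were tightly grouped (SD 0.27). The change of 6.32 (SE 0.15), 80.1-fold, is therefore a lower bound (limma, adjusted p = 6.63e-11).

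Fbln1, which binds fibronectin, laminin and nidogen, went the other way. It stood at 6.31, 7.20, 6.96, 6.27 and 6.39 in KO and at 9.15, 9.73, 9.62, 10.58 and 9.98 in WT. The highest KO value lay 1.95 under the lowest WT value, and both groups were above the negative control medians. The change was -3.19 (SE 0.27), 9.10-fold lower (limma, adjusted p = 3.03e-06).

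Fbln2, a partner of nidogen and laminin, was at 8.66, 8.20, 8.62, 9.02 and 10.06 in KO and at 7.64, 7.79, 7.61, 7.67 and 7.50 in WT. WT values were nearly alike (SD 0.10), the KO values spread more (SD 0.70), and the gap between the groups was 0.41. The change was 1.27 (SE 0.28), 2.41-fold (limma, adjusted p = 0.00491). KO replicate 5 was highest, and without it the change was 0.98.

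The difference between 2 fibulins within each array was compared between the groups. Fbln1 fell while Efemp1 and Fbln2 rose, each without overlap, so the p-values of both pairs with Fbln1 were fixed by those results. Efemp1 minus Fbln1 was 4.37 ± 0.50 in KO against -5.14 ± 0.47 in WT (SD, n = 5 each), a shift of 9.51. Efemp1 minus Fbln2 shifted by 5.06. Both are lower bounds, since Efemp1 in WT was at background. Fbln1 minus Fbln2 shifted by -4.45. Each of these 3 shifts had an exact two-sided permutation p = 0.00794, the smallest that 5 against 5 arrays allow, and an adjusted p of 0.0143 over the 9 pairs compared. In all 5 KO arrays the Efemp1 to Fbln1 difference was above that in all 5 WT arrays, which the opposite changes required.

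The sequences before the starts of these oppositely changed fibulin genes are shown so that they can be compared. They are taken from RefSeq (GRCm38.p6, forward strand), up to the first annotated base of the gene. Capitals mark a match to the AP-1 motif TGANTCA.
Efemp1, chr11:28852955-28853153: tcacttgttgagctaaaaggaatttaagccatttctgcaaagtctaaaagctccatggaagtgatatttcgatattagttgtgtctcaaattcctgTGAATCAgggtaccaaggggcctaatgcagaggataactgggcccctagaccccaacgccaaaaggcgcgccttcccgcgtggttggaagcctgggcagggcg
Fbln1, chr15:85205699-85205948: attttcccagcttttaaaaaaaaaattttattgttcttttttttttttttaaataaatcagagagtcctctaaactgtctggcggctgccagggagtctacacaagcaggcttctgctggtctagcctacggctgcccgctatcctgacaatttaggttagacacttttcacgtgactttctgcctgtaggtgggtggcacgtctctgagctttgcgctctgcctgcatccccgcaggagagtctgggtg
AP-1 motifs are bound by Fos and Jun proteins. The match of Efemp1 begins 154 bases before the start used in the motif search, and the stretch of Fbln1 held none. That start of Efemp1 lies beyond the end of its printed stretch, which stops at the annotated gene. The printed stretches differ in length, 199 bases for Efemp1 and 250 for Fbln1. In the 250 bases before the start, read on both strands, an AP-1 match was in 1 of the 11 entries of the genes described and in 6.75% of all 32851 promoters. The TEAD motif GGAATG, bound by the partners of YAP, was in 1 entry, that of Nid1, and in 12.6% of all promoters. The kappa-B consensus, bound by NF-kB, was in 0 of the 11 entries and in 3.90% of all promoters. 8 of the 10 genes had an entry; Fn1 and Thbs1 had none. A match is a description of letters and not a sign of binding.

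Of the matricellular genes, Thbs1 and Tnc rose in KO and Sparc did not pass the threshold. Thbs1, which binds CD47 and CD36 and can activate latent TGF-beta, was at 10.45, 10.14, 9.98, 9.29 and 10.01 in KO. In WT it was at 5.10, 5.69, 6.10, 5.73 and 6.32. The groups were 2.97 apart. The change was 4.18 (SE 0.25), 18.2-fold (limma, adjusted p = 1.68e-07).

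Tnc, a branched glycoprotein of developing and wounded tissue that loosens adhesion to fibronectin, was at 6.82, 6.96, 7.56, 7.44 and 9.61 in KO. In WT it was at 4.02, 5.01, 5.12, 5.46 and 5.40. KO replicate 5 stood 2.06 above the other KO arrays and WT replicate 1 was the lowest of its group, yet the groups remained 1.35 apart. The change was 2.67 (SE 0.48), 6.38-fold (limma, adjusted p = 0.00134). WT values lay in and around the range of the negative control medians, so the fold is a lower bound. The change was 2.19 without KO replicate 5.

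Sparc, a calcium-binding protein that binds collagen, was at 6.08, 5.24, 5.35, 6.0 and 8.33 in KO and at 5.52, 5.71, 5.45, 5.56 and 5.76 in WT. The WT arrays were alike, and the KO arrays lay on both sides of them, with replicates 2 and 3 below all WT arrays and replicate 5 far above. The change of 0.60 (95% confidence interval -0.44 to 1.65) did not pass (limma, adjusted p = 0.411). Without KO replicate 5 it was 0.07 (limma, adjusted p = 0.863).

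Within arrays, Tnc minus Sparc shifted by 2.07 and Thbs1 minus Sparc by 3.58 between WT and KO. Both shifts had an exact two-sided permutation p = 0.00794, adjusted to 0.0143 over the 9 pairs. The shift of Tnc minus Sparc is a lower bound, as Tnc in WT was at background. Tnc minus Thbs1 was -2.30 ± 1.27 in KO against -0.79 ± 0.32 in WT (SD, n = 5 each), a shift of -1.51 that did not pass (exact two-sided permutation p = 0.0397, adjusted p = 0.0595). Without KO replicate 5 that shift was -1.99 and passed (exact permutation, adjusted p = 0.0119). Since Tnc in WT was at background its own change is a lower bound, and this pair therefore gives no order of the changes of Tnc and Thbs1.

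In the basement membrane set, both heparan sulfate proteoglycans rose and nidogen did not pass. Agrn, which binds dystroglycan and laminin and clusters receptors at nerve endings through Lrp4, was at 11.31, 10.71, 10.53, 10.65 and 10.92 in KO. In WT it was at 9.23, 8.47, 8.43, 8.89 and 8.54. It was well above the negative controls in both groups, which were 1.31 apart. The change was 2.12 (SE 0.19), 4.33-fold (limma, adjusted p = 5.40e-06).

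Hspg2, the core protein of perlecan, which stores growth factors in basement membranes, was at 8.79, 8.03, 7.65, 7.81 and 8.36 in KO. In WT it was at 6.82, 6.07, 6.26, 6.11 and 5.94. The gap between the groups was 0.83. The change was 1.89 (SE 0.23), 3.70-fold (limma, adjusted p = 6.50e-05). KO replicate 1 and WT replicate 1 were the highest arrays of their groups for Agrn and for Hspg2.

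Nid1, which bridges laminin and type IV collagen, was at 6.74, 8.07, 5.95, 7.12 and 5.87 in KO and at 5.57, 5.55, 5.57, 6.14 and 5.78 in WT. KO replicates 1, 2 and 4 lay above all WT arrays, and replicates 3 and 5 lay below WT replicate 4. The change of 1.03 (SE 0.36) did not pass (limma, adjusted p = 0.0554). It passed without KO replicate 3 (1.23, limma, adjusted p = 0.0265) and without KO replicate 5 (1.25, limma, adjusted p = 0.0239). It also passed with array weights, with the control or the dim probe sets left out, and with KO replicate 2 and WT replicate 4 left out (limma, adjusted p = 0.0295 to 0.0496).

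Within arrays, Hspg2 minus Agrn was -2.70 ± 0.16 in KO against -2.47 ± 0.23 in WT (SD, n = 5 each), a shift of -0.23 that did not pass (exact two-sided permutation p = 0.111, adjusted p = 0.125). Nid1 minus Hspg2 shifted by -0.86 and Nid1 minus Agrn by -1.09, and neither passed (exact two-sided permutation p = 0.151 and 0.0873, adjusted p = 0.151 and 0.112). Nid1 minus Agrn passed without KO replicate 2, at -1.45 (exact permutation, adjusted p = 0.0357). That these pairs did not pass does not show that they changed alike.

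The KO arrays did not agree on which matrix genes were highest. KO replicate 5 was the highest KO array for Fn1, Tnc, Fbln2 and Sparc, KO replicate 1 for Thbs1, Hspg2 and Agrn, and KO replicate 2 for Nid1 and Fbln1. KO replicate 2 was at the same time the lowest KO array for Fn1, Efemp1, Fbln2 and Sparc. 5 of the 10 genes had an SD over 0.7 in KO, where 3.56% of all probe sets did. Efemp1 was the steadiest of the 10 in KO.

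**Figure D3:**
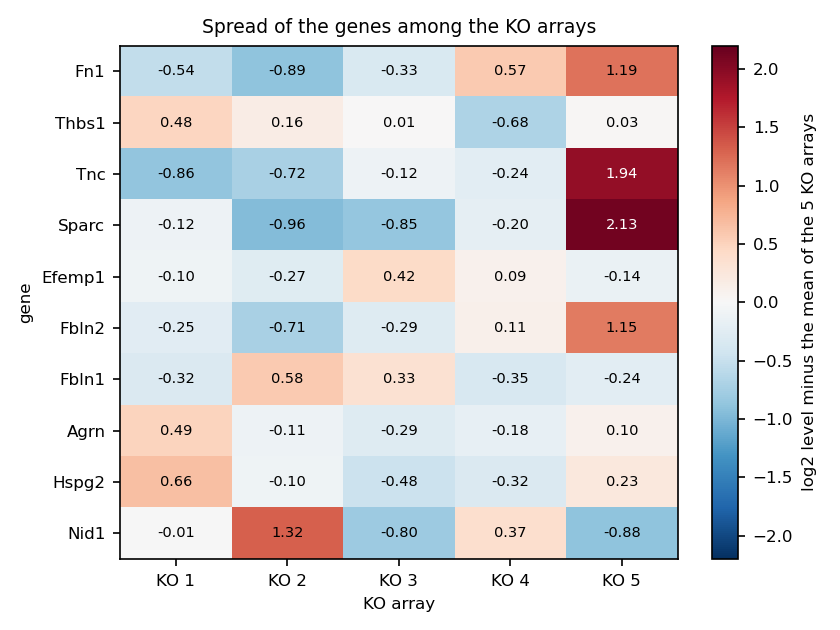
Log2 level of each gene in each KO array minus the mean of the 5 KO arrays (colour and printed value). Tnc and Sparc reach 1.94 and 2.13 in KO replicate 5, where Fn1 and Fbln2 are at 1.19 and 1.15, while Nid1 reaches 1.32 in KO replicate 2.

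The height of Tnc and Sparc in KO replicate 5 was uncommon on that array. Ranked by how far replicate 5 stood above the highest of the other 4 KO arrays, Sparc (2.25) was the 2nd and Tnc (2.06) the 4th of 19572 probe sets. The 1st was Cnn1, chosen after its values were known. It codes for a calponin of smooth muscle and myofibroblasts and stood at 8.30 against 4.76 to 5.29 in the other KO arrays and 4.90 to 5.18 in WT. Fbln2 was 48th and Fn1 187th on this scale.

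Markers of other cell types were measured beside these genes, since fibroblasts and muscle make most of these proteins in the gut wall. Of 26 measured mesenchymal markers 0 rose, 1 fell (3.85%) and 25 did not pass, with a median change of -0.02 (limma, adjusted p under 0.05). Over all probe sets 15.0% were higher and 11.7% lower. Their mean level was 5.15 to 5.45 in the KO arrays and 5.21 to 5.44 in the WT arrays. The collagen Col3a1 stood at 4.75 ± 0.17 in KO against 4.69 ± 0.08 in WT (SD, n = 5 each). Dcn, Lum, Postn, Fap, Des, Tagln, Dpt and Col5a1 were, like Col3a1, at or under the highest negative control median in KO, 9 of the 26 in all. Lum, the 1 that fell, was at 3.95 in KO and 4.34 in WT, inside or under that background. The other mesenchymal markers lay above the highest negative control median in KO. Among them Col1a1 was highest, at 7.13 in KO and 7.18 in WT, and Vim stood at 6.57 in KO and 7.10 in WT.

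In KO replicate 5, Cnn1 was the only 1 of the 26 mesenchymal markers more than 0.5 above the other KO arrays. Without Cnn1 the mean level of the list was 5.34 there and 5.17 to 5.39 in the other KO arrays. The next shares stand beside 15.0% higher and 11.7% lower over all probe sets. Of 11 endothelial markers 1 rose and 1 fell (9.09% each), Flt1 by 0.84 and Lyve1 by -1.92. Of 10 blood and immune markers 3 rose (30.0%) and 0 fell. The 3 were the receptors Cd14 (4.70), Csf1r (1.53) and Itgam (1.56), while the pan-leukocyte gene Ptprc changed by -0.21 and did not pass. Of 7 measured glial and neuronal markers 2 rose (28.6%), Ret (0.90) and S100b (0.46), and 0 fell. The part of these in the results was not tested.

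Defining epithelial markers were well above the negative controls in both groups. Cdh1, Krt8, Krt19 and Epcam stood at 12.72, 12.18, 12.21 and 10.82 in KO and at 12.27, 11.75, 11.84 and 11.12 in WT. Of 17 epithelial markers 5 rose (29.4%) and 7 fell (41.2%), against 15.0% and 11.7% of all probe sets. The falls with the smallest p were those of the Paneth cell lysozyme Lyz1 (-6.95), the intestinal factor Cdx1 (-3.01) and the endocrine granule protein Chga (-2.79). The tight junction protein Tjp1 rose by 1.18.

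Other genes of the matrix gave the setting of these changes. Of 61 further matrix glycoproteins measured 10 rose, 5 fell and 46 did not pass. That is a share of 16.4% higher and 8.20% lower, near that of all probe sets, and their median change was 0.03. In KO 18 of the 61, and in WT 21, had a mean at or under the highest negative control median. Over the alternatives of the fit 8 to 11 were higher and 4 to 6 lower. Igfbp7, which binds type IV collagen and growth factors, rose by 4.58, the integrin ligand nephronectin (Npnt) by 4.22 and the TGF-beta binding protein Ltbp3 by 3.86. Smoc2, a relative of Sparc, fell by 1.91 and Tgfbi fell by 0.82. The change of Nid2, the other nidogen, was -1.51. Nid2 stood at 5.40 ± 0.30 in KO against 6.90 ± 0.11 in WT (SD, n = 5 each). Tgfbi did not pass once KO replicate 5 (limma, adjusted p = 0.0540) or WT replicate 2 was left out (limma, adjusted p = 0.0566), nor against a 1.2-fold change (limma's treat, adjusted p = 0.0992).

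12 of the 24 measured matrix proteoglycans in KO, and 11 in WT, had a mean at or under the highest negative control median. Of the 24, 2 rose and 2 fell (8.33% each, against 15.0% higher and 11.7% lower over all probe sets), with a median of -0.09. Col18a1, whose core protein sits in basement membranes, rose by 3.77 from 5.31 ± 0.23 (SD, n = 5) in WT to 9.08 ± 0.66 (SD, n = 5) in KO. Biglycan (Bgn) rose by 1.09. Lum and Omd fell by 0.39 and 0.38 at levels under or within the negative controls. Omd did not pass when any of KO replicates 1 and 3 and WT replicates 1, 2 and 3 was left out (limma, adjusted p = 0.0523 to 0.0747), which left 1 lower gene in 4 of these cases; without KO replicate 1, Dcn passed in its place.

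Laminin and type IV collagen genes, the networks that nidogen and perlecan connect, were higher in KO for 8 of 16 measured, with 0 lower and a median of 0.54. These were 7 of the 10 laminin genes and 1 of the 6 type IV collagen genes, Col4a2 (1.57), while Col4a1 (0.37) and Col4a5 (0.40) did not pass and Col4a3, Col4a4 and Col4a6 lay between -0.06 and 0.04 without passing. The counts of both gene families stand beside 15.0% higher and 11.7% lower over all probe sets. The epithelial laminin chain Lama3 rose by 4.36, from 5.35 ± 0.22 (SD, n = 5) to 9.71 ± 0.36 (SD, n = 5). Lamb2 rose by 3.16. Lamb1 rose by at least 2.74, from 3.65 ± 0.31 in WT, under the negative control medians, to a widely spread 6.38 ± 1.74 in KO (SD, n = 5 each).

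Of 32 measured receptors of these and other matrix proteins 14 rose (43.8%) and 3 fell (9.38%), against 15.0% and 11.7% of all probe sets. Their median change was 0.15. The urokinase receptor Plaur, which also binds vitronectin, rose by 3.76, the syndecan Sdc3 by 2.21 and the collagen receptor subunit Itga2 by 1.65. Among receptors of fibronectin, named after their values were seen, Itga5 rose by 1.04, Itgav by 1.58 and Itgb1 by 0.86, while the changes of Itga4 (0.06), Itga8 (0.14) and Itgb3 (0.41) did not pass. Of the thrombospondin receptors, Cd47, likewise chosen with its value known, rose by 1.10. Cd36 fell by at least 3.53, from a WT level that spread widely (6.60 ± 2.15) to 3.07 ± 0.15 in KO, under the negative control medians (SD, n = 5 each). The agrin receptor Lrp4 fell by 1.89, from 8.85 ± 0.24 (SD, n = 5) in WT to 6.95 ± 0.16 (SD, n = 5) in KO. Itga9, a tenascin receptor subunit, changed by -0.27 near background. It lost its call without any 1 of the 10 arrays (limma, adjusted p = 0.0542 to 0.109).

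The list of matrix assembly and crosslinking genes also held proteases such as Adamts1 and Adamts9. Its count therefore does not describe assembly or crosslinking alone. Of 29 measured 12 were higher in KO (41.4%) and 0 lower. The shares over all probe sets were 15.0% and 11.7%, and the median change of the list was 0.37. The protease Adamts1 rose by at least 4.39 from a WT level at background (4.94 ± 0.23, SD, n = 5), the collagen prolyl hydroxylase P4ha2 by 1.87 and the transglutaminase Tgm2, which crosslinks fibronectin, by 1.45. Without KO replicate 5, 1 of these genes was lower, Lox (-0.36, limma, adjusted p = 0.0491).

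**Figure D4:**
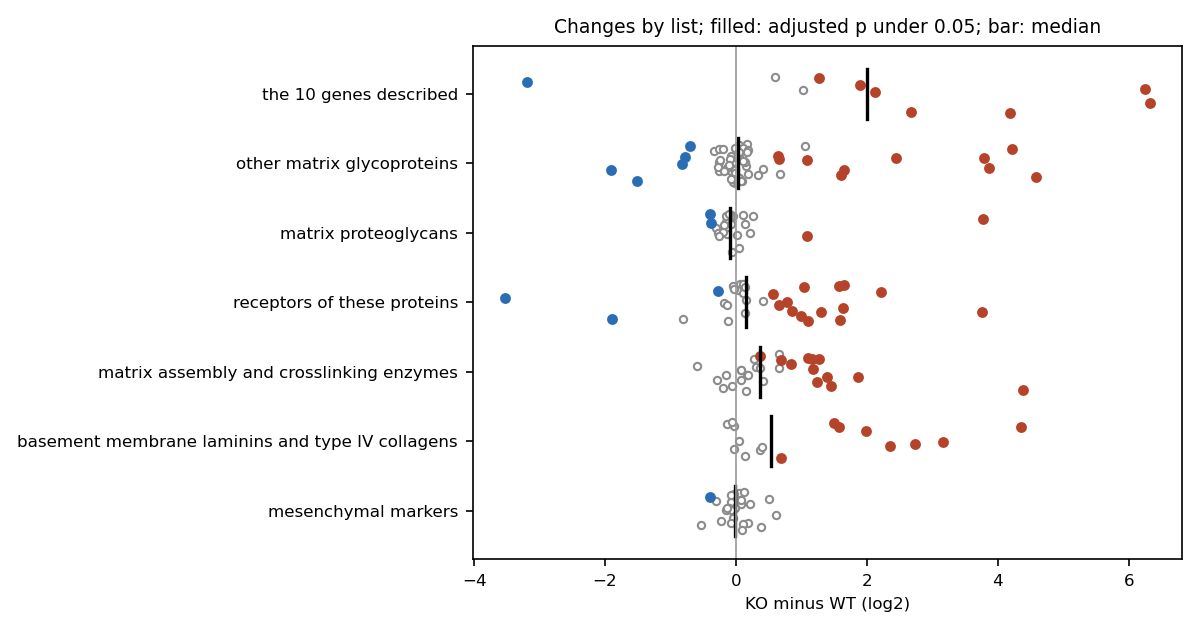
Change of every measured gene (KO minus WT, log2, horizontal axis) in the 10 genes described, the 5 lists of other matrix genes and receptors, and the mesenchymal markers; each point is a gene, filled where the adjusted p was under 0.05, and the bar is the median. The 10 genes have a median of 2.0, the further glycoproteins of 0.03, and the mesenchymal markers gather around 0.

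The 10 genes themselves, predicted genes, clone names and olfactory or vomeronasal receptors were left out of the search for like genes. Among the rest, the genes most like each of the 10 over all arrays were found by a root mean square difference. It was taken between levels centred on their own mean, and for the 8 that passed it is set mainly by the change between the groups. For Nid1 and Sparc that change made up 42.8% and 12.5% of the sum of squares over the arrays, and the rest was spread within the groups, mostly in KO. Nearest to Efemp1 were Rdx (0.23), Bicc1 (0.29) and Plet1 (0.37), and nearest to Fn1 were Palmd (0.46), Bicc1 (0.52) and Cdh6 (0.53). Thbs1 was nearest to Prkch (0.34), Sh3kbp1 (0.37) and Parp8 (0.38). Fbln1 was nearest to Pm20d1 (0.17), Ppp1r14d (0.22) and Dpyd (0.27), which fell by 3.26, 3.33 and 3.24. Palmd, Bicc1, Cdh6, Rdx, Prkch and Parp8 in WT and Pm20d1 in KO were at background. Hspg2 and Agrn shared Pamr1 among their 3 nearest genes (0.26 and 0.24). For Sparc the nearest were Cyp21a1 (0.35), Ebf4 (0.35) and Nox4 (0.36), none of which passed. Cyp21a1 passed in 7 of the 22 alternatives, Ebf4 in 4, and Nox4 with the replicate block.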

How the data were processed

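Total RNA (100 ng per sample, per the labels' protocols) of 5 KO and 5 WT organoid samples was measured on 1 array each after biotin labelling. The authors deposited log2 levels per probe set from RMA, per the submitters' notes. Limma is the other tool in the submitters' processing notes. Versions, a genome build and joint normalization of the arrays are not given in the sources that were used. The table held 28846 probe sets, 6640 of them controls (5222 negative); 19572 had 1 gene symbol in the platform table, 0 had several and 2634 are unnamed here. The number of arrays limits the precision (median SD 0.20 in KO, 0.21 in WT).

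KO was compared with WT by limma 3.58.1 (R 4.3.3) on the levels as deposited, with all probe sets in the fit and Benjamini-Hochberg adjustment over the 19572. Pairs of genes were compared by exact permutation of within-array differences. Per gene the probe set with the highest mean stood. Named were the 10 genes, Nfkbia, the 3 highest and 3 lowest genes past the threshold per list, up to 4 marker genes per list by p, the 3 nearest genes of each of the 10, and others said to be chosen after their values were seen. Sex-linked, epithelial and other marker values given without a call serve as checks. The genes and lists were chosen with earlier results of these data known. Alternatives were cyclic loess, centring on the 75th percentile, leaving out dim, control or X and Y probe sets, the mean over a gene's probe sets, trend and robust variances, array weights, a replicate block, adjustment over all probe sets, a 1.2-fold null, and arrays left out. Fits were tested on simulated data. Protein sequences were not analysed here. Python 3.11.15 made the tables (numpy 2.4.6, pandas 2.3.3) and figures (matplotlib 3.10.9).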

Additional observations from a re-analysis of the deposited data

Results flagged for a closer look

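Some arrays stood far from the rest of their group, by Dixon's ratio of the gap to the whole range at its 95% critical value. Chance flags about 1 in 20 groups of independent, normally distributed values. Here 14 of 144 gene and group sets passed, 2 of them among the 20 sets of the 10 matrix genes. The share over all probe sets was not computed, so whether these counts are high for these arrays cannot be said. Of the 14, 6 came from the 56 sets of genes named only for their likeness to one of the 10, a choice that used these same arrays and favours genes with the same high array; the other sets gave 8 of 88. The 2 flags of the matrix genes were in KO replicate 5: Tnc at 9.61 (others 6.82 to 7.56) and Sparc at 8.33 (others 5.24 to 6.08). KO replicate 5 also stood apart for Sdc3 at 8.95 (others 7.32 to 7.63), Tgm2 at 10.50 (others 9.59 to 9.75), Trpm6 at 6.50 (others 5.09 to 5.28) and Nox4 at 6.38. KO replicate 1 stood apart for Itgam at 8.37 and Prkch at 9.42, KO replicate 2 for Sh3kbp1 at 10.84 and KO replicate 4 for Lyz1 at 5.13. In WT, replicate 1 stood apart for Chga at 7.34 and Plekhb1 at 6.57, replicate 3 for Trpm6 at 4.21 and replicate 5 for Nfkbia at 9.85.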

How the results depend on the processing

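The 10 changes were recomputed in 22 ways each. None turned direction, the 8 calls were kept in all of them, and Nid1 passed in 6. With 1 array left out, 7 or 8 genes were higher and 1 lower. Against a 1.2-fold change 3034 probe sets passed in place of 5224. Of the proteoglycans, 1 was higher without X and Y genes, since that setting removed the X-linked Bgn. The 2 lower ones became 0 against a 1.2-fold change, 1 with cyclic loess and 1 with the replicate block. Leaving out dim probe sets removed Lum and Omd themselves, so the count of 0 there was fixed by the filter. Leaving out 1 array gave 1 or 2 lower proteoglycans. In the list of assembly and crosslinking genes, 0 or 1 was lower with 1 array left out. Of the 9 pairs 5 passed, 5 or 6 with 1 array left out, and 0 with KO replicate 2 and WT replicate 4 left out, where the shifts were 9.57 (Efemp1 minus Fbln1), 4.98 (Efemp1 minus Fbln2), -4.59 (Fbln1 minus Fbln2), 3.30 (Thbs1 minus Sparc) and 2.14 (Tnc minus Sparc), and the smallest p that 4 against 4 arrays allow gave each an adjusted p of 0.0514 (exact permutation). The outcomes of both pairs with Fbln1 were fixed by the opposite directions of their genes. Whether the replicate numbers pair the samples was not settled. Same-numbered arrays correlated at -0.07 to 0.36 after removal of group means, but arrays of different numbers were not compared. With the replicate block, 7 of the 10 genes were higher and 1 lower; Itga9 and Omd lost their calls, the receptor Lrp1 passed as lower (-0.81), and Ebf4 (0.86) and Nox4 (0.73), nearest to Sparc, passed as higher. The cause of the losses under cyclic loess and the block was not tested. Levels near the negative control medians limit what can be read of Fn1, Efemp1, Tnc and Sparc in WT.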
